A study of Mus musculus with 4 samples.

Results

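Cultures of mesenchymal stem/progenitor cells (MSPCs), the adherent stromal cells that grow out of bone marrow, were examined here for 48 macrophage genes. The 48 genes were taken from the FPKM table by symbol from a list of genes known for their expression in macrophages and other myeloid cells. All 48 of 48 had a row among 23997 symbols, and each had a single row. They lie on 18 chromosomes. Of the 48, 33 reached a mean of 1 FPKM over the 4 libraries (fragments scaled to transcript length and library depth, a level per length) and entered the test across 11481 symbols.

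RNA was sequenced from 2 Asxl1-/- libraries and 2 wild-type (WT) libraries, all from bone marrow MSPCs of mice on the C57BL/6 background. Cells of both groups were at passages 5 to 10 and were grown in MesenCult medium. Asxl1 encodes a chromatin regulator that works with the histone deubiquitinase BAP1. The labels give neither the promoter or cell type behind a deletion nor the number of animals behind a culture, and no sorting step is described. Replicates 1 and 2 are numbered in accession order, and a number pairs no libraries. Where 2 values are given for a group they are those of replicate 1 and then replicate 2.

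Macrophages are phagocytes that arise from blood-forming stem cells, not from the mesenchymal lineage. They need signals through the receptor Csf1r, their identity rests on the transcription factor PU.1 (encoded by Spi1), and they carry lysosomal proteases, Fc receptors, complement C1q and scavenger receptors. They adhere to plastic as stromal cells do, and resident bone marrow macrophages are a known companion of stromal cells in mouse marrow cultures.

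Asxl1 stood at 0.273 and 0.312 FPKM in the Asxl1-/- libraries, against 14.6 and 11.2 FPKM in the WT libraries, which fits the labels. Depth was similar, at an estimated 25100000 and 23200000 fragments in the Asxl1-/- libraries and 24100000 and 23700000 in the WT libraries, read from the steps of low FPKM values. At that depth 3 fragments on a transcript of 1 kb correspond to 0.120 to 0.130 FPKM, and less on a longer transcript. An FPKM listed at 0 on such a transcript allows up to that level. The stromal list of 13 genes, led by Vim, Col1a1, Col1a2 and Col3a1, summed to 6614 and 5786 FPKM in the Asxl1-/- libraries and to 5615 and 7737 FPKM in the WT libraries. Rows under 300 bp, where a short length inflates FPKM, took 22.6% and 21.4% of the FPKM sum in the Asxl1-/- libraries, against 24.9% and 40.9% in the WT libraries, so that WT replicate 2 stood apart.

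Some of the sequences behind these measurements are shown first. Lyz2 and its neighbour Lyz1, the macrophage-type and the Paneth-cell-type lysozyme of the mouse, lie 5.52 kb apart on chromosome 10, and the coding sequences differ at 22 of 444 bases (GENCODE M21), with a longest identical run of 118 bases. Reads from such a run cannot be told apart, so the split of fragments between both genes rests on the remaining bases. The window below, coding bases 61 to 120, holds 9 of the 22 differences, in capitals:

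Lyz1: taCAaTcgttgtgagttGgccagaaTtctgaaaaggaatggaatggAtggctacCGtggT

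Lyz2: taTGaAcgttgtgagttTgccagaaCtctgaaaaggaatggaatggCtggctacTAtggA

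PU.1 binds purine-rich sites with a GGAA core. AGGAAGT, a form of that site, was found on either strand in 13 of the 37 members with a RefSeq promoter (35.1%). Over all symbols it was found in 2886 of 27025 (10.7%). Windows ran from 250 bases before to 50 bases after the start. A symbol counted if any of its promoters held a match, so symbols with several promoters had more chances. The shorter GAGGAA, which can overlap AGGAAGT by AGGAA, was in 25 of 37 (67.6%) and in 31.3% of all symbols. A match is a run of letters in a window and no measured site, and binding was not measured. The promoters of the 3 highest members that hold AGGAAGT are shown because their genes are at the centre of what follows (RefSeq, GRCm38.p6, gene strand). The capitals mark the match, which reads ACTTCCT here since it lies on the other strand. Its first base is 100 bases before the start of Lyz2 (chr10:117282223-117282522, minus strand), 195 bases before that of C1qc (chr4:136892865-136893164, minus strand) and 2 bases before that of Ctss (chr3:95526536-95526835, plus strand).

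Lyz2: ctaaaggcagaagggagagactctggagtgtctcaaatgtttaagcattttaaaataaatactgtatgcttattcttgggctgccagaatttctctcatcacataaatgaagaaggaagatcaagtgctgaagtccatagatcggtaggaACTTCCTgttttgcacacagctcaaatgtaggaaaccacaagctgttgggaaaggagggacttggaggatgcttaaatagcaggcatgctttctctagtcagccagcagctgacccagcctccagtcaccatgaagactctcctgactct

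C1qc: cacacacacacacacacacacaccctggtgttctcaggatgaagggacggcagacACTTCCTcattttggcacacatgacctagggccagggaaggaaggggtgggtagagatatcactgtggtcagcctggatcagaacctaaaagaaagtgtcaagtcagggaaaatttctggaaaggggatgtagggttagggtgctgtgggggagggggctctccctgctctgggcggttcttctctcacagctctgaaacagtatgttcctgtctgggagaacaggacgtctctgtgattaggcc

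Ctss: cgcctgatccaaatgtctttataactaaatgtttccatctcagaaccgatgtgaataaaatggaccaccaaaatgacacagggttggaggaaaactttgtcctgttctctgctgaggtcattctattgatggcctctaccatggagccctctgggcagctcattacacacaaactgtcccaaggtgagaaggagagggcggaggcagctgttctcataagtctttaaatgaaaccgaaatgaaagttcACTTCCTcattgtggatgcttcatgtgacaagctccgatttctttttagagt

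The 48 genes together were high in 1 library of each genotype and low in the other. Their FPKM summed to 91.9 and 469 in the Asxl1-/- libraries, against 11.5 and 714 in the WT libraries. As a share of all FPKM this was 0.0166% and 0.0943% in the Asxl1-/- libraries and 0.00204% and 0.101% in the WT libraries. Over rows of at least 300 bp alone it was 0.0215% and 0.120% in the Asxl1-/- libraries and 0.00271% and 0.172% in the WT libraries. In replicate 2 of both genotypes the genes were high, and in WT replicate 1 their sum was lowest. Even there 17 of the 48 stood at over 3 estimated fragments, against 26 in Asxl1-/- replicate 1. In bulk RNA fewer cells of a type and less RNA per cell cannot be told apart. Lyz2 alone made 62.6% of the sum in Asxl1-/- replicate 2 and 56.0% in WT replicate 2, while Fcer1g made 78.5% of it in Asxl1-/- replicate 1. Without these 2 genes the sums were 17.4 and 168 FPKM in the Asxl1-/- libraries and 8.65 and 300.4 FPKM in the WT libraries.

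The number of genes at a level of 1 FPKM showed the same split. There were 4 and 34 such genes of 48 in the Asxl1-/- libraries and 5 and 36 in the WT libraries. The median gene stood at 0.0980 and 2.96 FPKM in the Asxl1-/- libraries and at 0.0346 and 3.84 FPKM in the WT libraries. Genes listed at 0 numbered 10 and 3 in the Asxl1-/- libraries and 17 and 1 in the WT libraries. Asxl1-/- replicate 1 held the highest value of 2 genes, Asxl1-/- replicate 2 of 7 and WT replicate 2 of 38, and Fgr, a Src-family kinase, was listed at 0 in all 4 libraries.

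In 43 of the 48 genes both replicates 2 lay above both replicates 1, and in 35 of them by over 5-fold. Among all 11481 symbols tested the shares were 10.2% and 0.496%, and among the 33 tested macrophage genes 31 and 25 met these rules. The 5 exceptions were Fcer1g, Cd53, Aif1, Ccr2 and Fgr. The most frequent orders were WT replicate 2, Asxl1-/- replicate 2, Asxl1-/- replicate 1, WT replicate 1 from high to low (20 genes) and the same with the 2 lowest exchanged (14 genes).

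**Figure D1:**
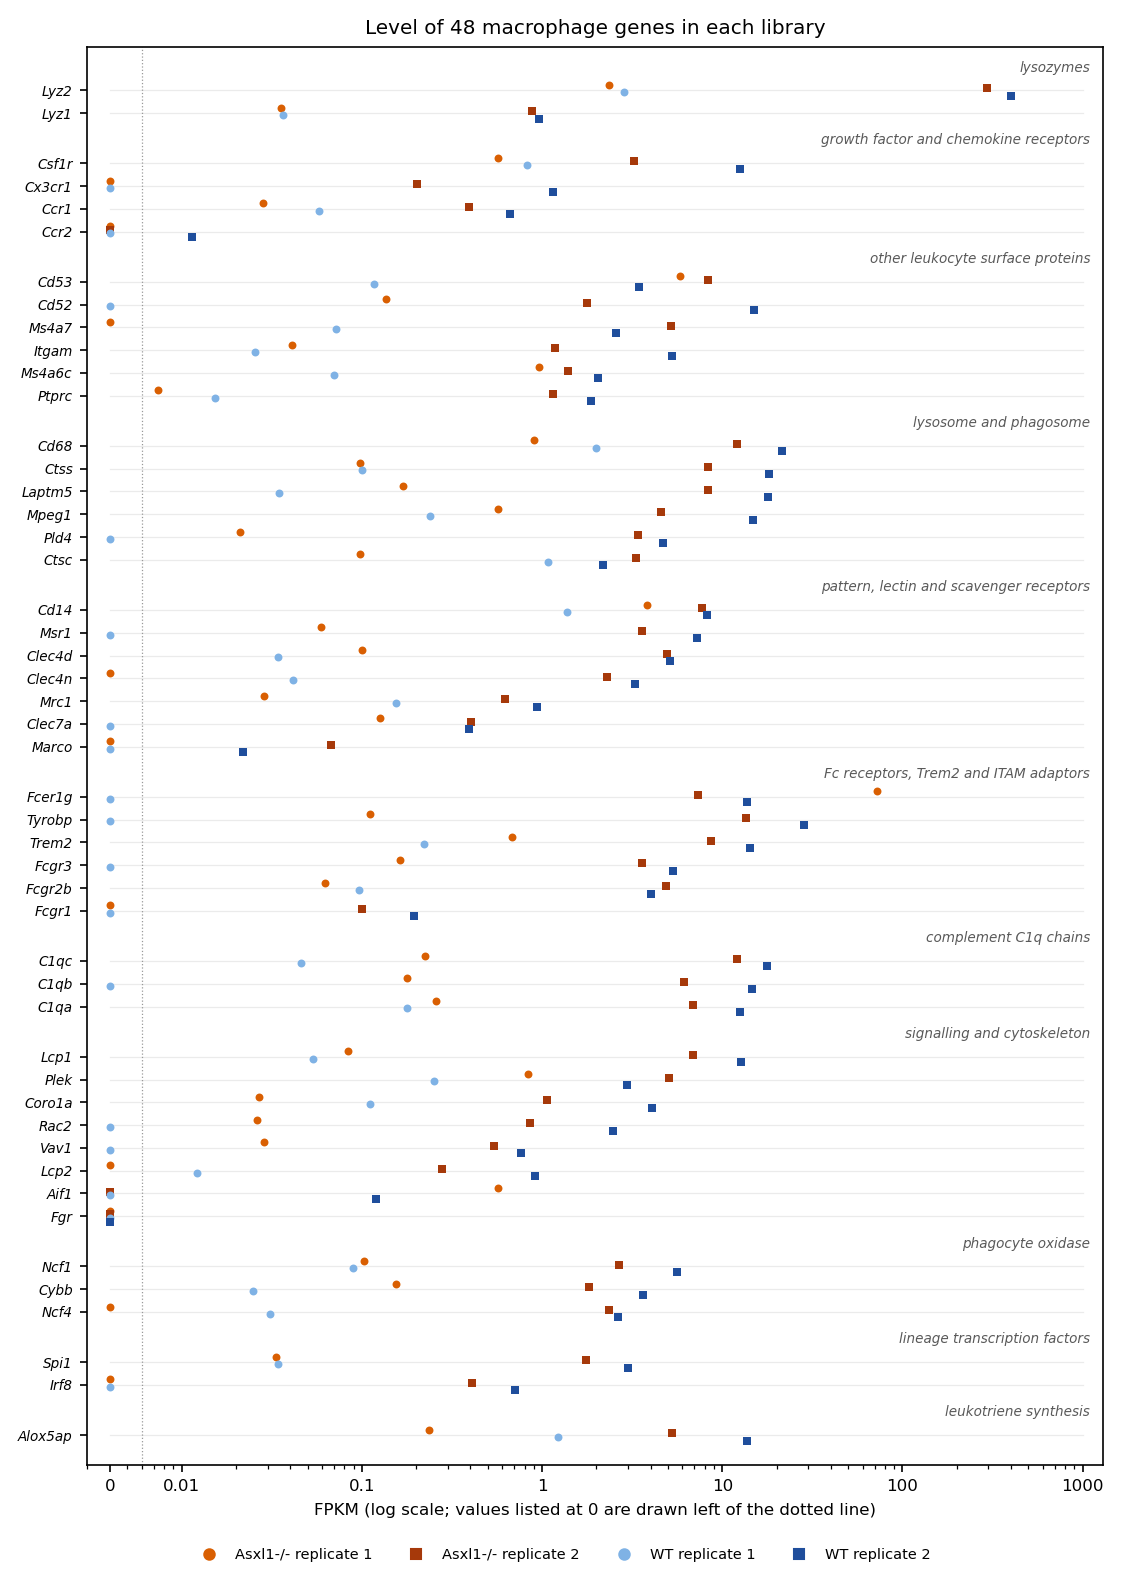
FPKM (log scale) of each of the 48 macrophage genes in Asxl1-/- replicates 1 and 2 (orange circles, dark red squares) and WT replicates 1 and 2 (light blue circles, dark blue squares), grouped by role, with values listed at 0 left of the dotted line. In 43 genes both squares lie right of both circles, and Fcer1g in Asxl1-/- replicate 1, at 72.2 FPKM, lies outside that pattern.

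Lyz2, the secreted lysozyme that breaks bacterial cell walls, had the highest mean level of the 48 (chromosome 10, 117277541 to 117282272, mm10). It stood at 2.36 and 293 FPKM in the Asxl1-/- libraries, against 2.85 and 399.9 FPKM in the WT libraries. The groups overlapped over nearly their whole range, and both low libraries were within 1 FPKM of each other. In the libraries where it was high, Lyz2 reached 21.02% of the FPKM of Col1a1 in Asxl1-/- replicate 2 and 19.6% in WT replicate 2, against 0.169% in Asxl1-/- replicate 1 and 0.219% in WT replicate 1. Lyz1 followed the same libraries at 0.0355 and 0.881 FPKM in the Asxl1-/- libraries and 0.0366 and 0.967 FPKM in the WT libraries. It was 0.3004% of Lyz2 in Asxl1-/- replicate 2 and 0.242% in WT replicate 2, a level that the shared sequence printed above leaves uncertain.

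Csf1r, the receptor for the growth factors Csf1 and Il34, stood at 0.573 and 3.25 FPKM in the Asxl1-/- libraries, against 0.828 and 12.6 FPKM in the WT libraries. Both low libraries still held an estimated 67.6 (Asxl1-/- replicate 1) and 94.0 (WT replicate 1) Csf1r fragments, so the gene was low there and not absent. Cx3cr1, the fractalkine receptor of monocytes and tissue macrophages, stood at 0 and 0.202 FPKM in the Asxl1-/- libraries and at 0 and 1.15 FPKM in the WT libraries. Ccr1, a chemokine receptor, reached 0.395 FPKM in Asxl1-/- replicate 2 and 0.664 FPKM in WT replicate 2. Ccr2, the receptor that inflammatory monocytes use to leave the marrow, was listed at 0 in both Asxl1-/- libraries and had 0 and 0.0114 FPKM in the WT libraries. The macrophage receptor Csf1r was thus measured well above the monocyte receptor Ccr2 in every library.

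Of the 8 ligand genes of these receptors, 2 had both replicates 2 above both replicates 1, against 10.2% of all symbols tested. Il34 was 1 of them, by a narrow margin of 3.37 FPKM in WT replicate 2 over 3.01 FPKM in Asxl1-/- replicate 1. The other did not pass 0.383 FPKM in any library. Csf1, the growth factor that keeps macrophages alive, stood at 135 and 172 FPKM in the Asxl1-/- libraries and at 175 and 240 FPKM in the WT libraries. Il34, the other Csf1r ligand, was at 3.01 and 17.3 FPKM in the Asxl1-/- libraries and at 2.53 and 3.37 FPKM in the WT libraries. Ccl7 and Ccl2, chemokines that draw monocytes, were highest where most macrophage genes were low. Ccl7 stood at 235 and 41.9 FPKM in the Asxl1-/- libraries and at 62.2 and 43.8 FPKM in the WT libraries. Ccl2 stood at 126 and 32.6 FPKM in the Asxl1-/- libraries and at 66.2 and 30.0 FPKM in the WT libraries. For both chemokines, both replicates 1 thus lay above both replicates 2. Cx3cl1, the Cx3cr1 ligand, stood at 13.6 and 59.3 FPKM in the Asxl1-/- libraries and at 63.9 and 36.9 FPKM in the WT libraries.

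The transcription factors of the lineage were low in level and split between the libraries in the same way. Spi1, encoding PU.1, stood at 0.0333 and 1.76 FPKM in the Asxl1-/- libraries, against 0.0343 and 3.002 FPKM in the WT libraries. Irf8, a factor of monocytes, macrophages and dendritic cells, stood at 0 and 0.411 FPKM in the Asxl1-/- libraries, against 0 and 0.709 FPKM in the WT libraries. In both low libraries the Spi1 level corresponds to under 3 fragments.

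Surface proteins shared with other leukocytes included both genes that kept to the common pattern and 1 that did not. Ptprc (CD45), carried by nearly all blood cells other than mature red cells and platelets, stood at 0.00740 and 1.16 FPKM in the Asxl1-/- libraries and at 0.0152 and 1.86 FPKM in the WT libraries. Itgam (CD11b), the myeloid integrin chain, stood at 0.0412 and 1.18 FPKM in the Asxl1-/- libraries and at 0.0254 and 5.25 FPKM in the WT libraries. Both were at the level of single fragments or a few fragments where they were low. Cd52, encoding a small lipid-anchored surface glycoprotein, stood at 0.137 and 1.77 FPKM in the Asxl1-/- libraries and at 0 and 15.1 FPKM in the WT libraries. Cd53, a tetraspanin of leukocytes, departed from the pattern with 5.82 and 8.37 FPKM in the Asxl1-/- libraries, against 0.117 and 3.43 FPKM in the WT libraries. It was the only one of the 33 tested genes whose 2 Asxl1-/- values both lay above both WT values. Of the 2 Ms4a genes, membrane proteins of the CD20 family, Ms4a7 reached 5.17 FPKM in Asxl1-/- replicate 2 and 2.56 FPKM in WT replicate 2, while Ms4a6c reached 1.39 FPKM in Asxl1-/- replicate 2 and 2.05 FPKM in WT replicate 2.

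All 6 genes of the lysosome and phagosome were at 1 FPKM or more in both high libraries, and together they summed to 1.87 and 40.1 FPKM in the Asxl1-/- libraries and to 3.45 and 79.1 FPKM in the WT libraries. Cd68, a lysosomal membrane glycoprotein and a standard macrophage marker, stood at 0.908 and 12.1 FPKM in the Asxl1-/- libraries, against 2.00 and 21.4 FPKM in the WT libraries. Ctss, a protease that trims the class II invariant chain, stood at 0.0978 and 8.30 FPKM in the Asxl1-/- libraries, against 0.101 and 18.2 FPKM in the WT libraries. The protease was thus at a few fragments in both low libraries, where Cd68 was not. Laptm5, Mpeg1 (perforin-2) and Pld4 followed the same libraries, with 3.42 to 8.37 FPKM in Asxl1-/- replicate 2 and 4.68 to 17.9 FPKM in WT replicate 2. Ctsc, a protease that activates serine proteases of granules, stood at 0.0982 and 3.31 FPKM in the Asxl1-/- libraries and at 1.08 and 2.17 FPKM in the WT libraries, where its contrast of 2.02-fold was the smallest of the 17 genes measured well enough in both.

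Complement C1q is built from 3 chains encoded side by side on chromosome 4 and is made chiefly by macrophages. C1qa (136895916 to 136898844) stood at 0.259 and 6.85 FPKM in the Asxl1-/- libraries, against 0.178 and 12.5 FPKM in the WT libraries. C1qb (136880145 to 136886177) stood at 0.177 and 6.11 FPKM in the Asxl1-/- libraries, against 0 and 14.6 FPKM in the WT libraries. C1qc (136889802 to 136892914) stood at 0.224 and 12.0 FPKM in the Asxl1-/- libraries, against 0.0461 and 17.6 FPKM in the WT libraries. All 3 chains thus followed replicate 2 of both genotypes, and C1qc was the highest chain in both of these libraries.

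Activating Fc receptors bind antibody-coated particles and signal through the adaptor Fcer1g, and Trem2, a lipid-sensing receptor, signals through the adaptor Tyrobp (DAP12). Tyrobp, at chromosome 7, 30413788 to 30417579, had 0.111 and 13.5 FPKM in the Asxl1-/- libraries, against 0 and 28.6 FPKM in the WT libraries. Its partner Trem2 stood at 0.684 and 8.61 FPKM in the Asxl1-/- libraries, against 0.220 and 14.2 FPKM in the WT libraries. Receptor and adaptor were high in the same libraries. The inhibitory receptor Fcgr2b reached 4.86 FPKM in Asxl1-/- replicate 2 and 4.05 FPKM in WT replicate 2. The activating receptor Fcgr3 reached 3.60 FPKM in Asxl1-/- replicate 2 and 5.35 FPKM in WT replicate 2. Fcgr1, the high-affinity receptor, did not pass 0.195 FPKM in any library.

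Fcer1g broke with the activating receptors. It stood at 72.2 and 7.38 FPKM in the Asxl1-/- libraries, against 0 and 13.7 FPKM in the WT libraries. In Asxl1-/- replicate 1, where it was highest, Fcgr3 was at 0.164 FPKM and Tyrobp at 0.111 FPKM. The gene lies on chromosome 1, 171229572 to 171234349, on the minus strand. Mast cells and basophils also use this adaptor, and the list of 7 genes of these cells summed to 2.47 and 0.130 FPKM in the Asxl1-/- libraries and to 0.876 and 1.22 FPKM in the WT libraries. Its highest gene was Mcpt8, a basophil protease, at 1.94 FPKM in Asxl1-/- replicate 1, where the mast cell proteases Cma1 and Cpa3 were at 0.435 and 0.0301 FPKM. Cma1 was at 0 FPKM in Asxl1-/- replicate 2, against 0 and 0.0456 FPKM in the WT libraries, so Mcpt8 and Cma1 were highest in the library where Fcer1g was. Tpsb2 and Ms4a2 were at only 0.0429 and 0.0167 FPKM in that library and at 0 in the others. Cpa3 was lowest there, with 0.0648 FPKM in Asxl1-/- replicate 2 and 0.0619 and 0.0315 FPKM in the WT libraries. Fcer1a and Mcpt4 were listed at 0 in all 4 libraries. The part of such cells in the Fcer1g value was not tested.

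Among the pattern, lectin and scavenger receptors, Cd14, the coreceptor for lipopolysaccharide, had the smallest ratio of its highest to its lowest value. It stood at 3.83 and 7.75 FPKM in the Asxl1-/- libraries, against 1.37 and 8.20 FPKM in the WT libraries. The fungal receptor genes Clec4d and Clec4n, which lie 15.1 kb apart on chromosome 6, were at 4.95 and 2.28 FPKM in Asxl1-/- replicate 2, against 5.12 and 3.28 FPKM in WT replicate 2. Msr1, a scavenger receptor for modified lipoproteins, was at 3.60 FPKM in Asxl1-/- replicate 2 and 7.28 FPKM in WT replicate 2. Mrc1 and Marco, receptors that mark particular resident macrophages, stayed under 1 FPKM in all 4 libraries. Mrc1 (CD206), the mannose receptor, stood at 0.0288 and 0.621 FPKM in the Asxl1-/- libraries and at 0.156 and 0.934 FPKM in the WT libraries. It still followed the common pattern, at an estimated 3.88 and 77.3 fragments in the Asxl1-/- libraries and 20.2 and 119 in the WT libraries. Marco, a scavenger receptor of alveolar and marginal zone macrophages, stood at 0 and 0.0676 FPKM in the Asxl1-/- libraries and at 0 and 0.0219 FPKM in the WT libraries.

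The 3 subunits of the phagocyte oxidase, which makes superoxide against microbes, were at 1.83 to 2.66 FPKM in Asxl1-/- replicate 2 and at 2.64 to 5.59 FPKM in WT replicate 2, and at no more than 0.154 FPKM in the other libraries. Cybb, the catalytic subunit, stood at 0.154 and 1.83 FPKM in the Asxl1-/- libraries, against 0.0250 and 3.64 FPKM in the WT libraries. Cyba, the partner of Cybb in the membrane and a gene outside the 48, was at 57.7 and 74.4 FPKM in the Asxl1-/- libraries and at 47.2 and 12.3 FPKM in the WT libraries. The partner was therefore abundant where the catalytic subunit was near 0, and it was lowest where Cybb was highest. Cyba was highest in Asxl1-/- replicate 2, where Cybb stood at 1.83 FPKM, so the levels of these genes did not simply run opposite to each other.

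Signalling and cytoskeletal genes of leukocytes ranged from abundant to not detected. Lcp1 (L-plastin), an actin bundler, was the highest of the 8, with 0.0834 and 6.85 FPKM in the Asxl1-/- libraries and 0.0536 and 12.8 FPKM in the WT libraries. Plek (pleckstrin), a protein kinase C substrate, stood at 0.839 and 5.04 FPKM in the Asxl1-/- libraries, against 0.252 and 2.95 FPKM in the WT libraries. Aif1 (Iba1), an actin-binding protein widely used as a macrophage marker, stood at 0.572 and 0 FPKM in the Asxl1-/- libraries and at 0 and 0.120 FPKM in the WT libraries. Aif1 was thus listed at 0 in the Asxl1-/- library where most of the 48 genes were high. Alox5ap, which hands arachidonic acid to 5-lipoxygenase for leukotriene synthesis, stood at 0.237 and 5.30 FPKM in the Asxl1-/- libraries, against 1.22 and 13.8 FPKM in the WT libraries.

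The libraries of a genotype lay far apart. Among the 25 genes with over 3 fragments in both Asxl1-/- libraries, the ratio of replicate 2 to replicate 1 had a median of 21.99, with extremes of 0.102 for Fcer1g and 124 for Lyz2. Among the 17 such genes in the WT libraries the median was 29.2, with extremes of 2.02 for Ctsc and 238 for Lcp1. Genes low in a library are left out of these medians, which therefore describe the better measured genes only.

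The libraries high in these genes could be set against each other, as 1 library per genotype and with no replicate check. Of the 34 genes at 1 FPKM or more in both, 29 were lower in Asxl1-/- replicate 2 than in WT replicate 2. The median ratio was 0.577, with quartiles of 0.469 and 0.733, against 0.966, with quartiles of 0.751 and 1.24, over the 10541 symbols at 1 FPKM or more in both. The lowest ratio was that of Cd52 (0.118), and Cd53 (2.44), Ms4a7, Plek, Ctsc and Fcgr2b had ratios above 1. Lyz2 had a ratio of 0.734, the C1q chains 0.418 to 0.682 and Csf1r 0.258. This difference compares 2 libraries, not the genotypes.

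**Figure D2:**
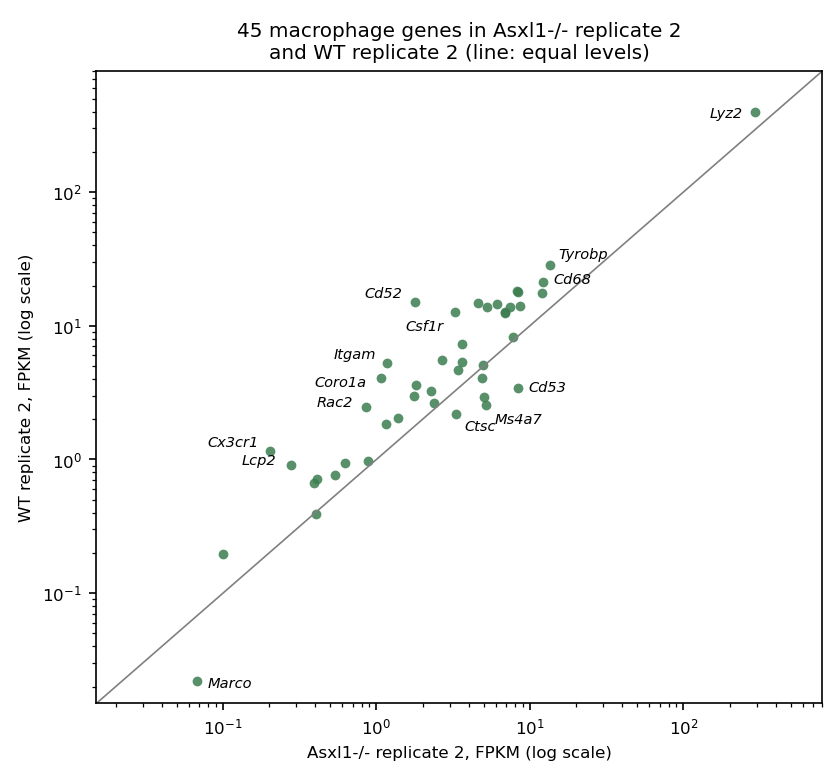
FPKM of 45 macrophage genes (those above 0 in both) in Asxl1-/- replicate 2 (horizontal, log scale) and WT replicate 2 (vertical, log scale), with a line of equal levels. Most genes lie above the line, Lyz2 is highest at 293 and 399.9 FPKM, Cd52 lies farthest above it and Cd53, Ms4a7 and Ctsc are among those below.

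Between the genotypes no macrophage gene passed the test, and neither did Asxl1 itself. Asxl1 had a log2 fold change of -3.41 with a standard error of 0.29 (limma, adjusted p = 0.215, unadjusted p = 0.000131), so the test missed a difference of that size and a miss does not show that a gene is alike in both genotypes. The genes were compared with limma on log2(FPKM + 1), a scale that understates the change of low genes, and Benjamini-Hochberg adjustment ran over all 11481 symbols. At an adjusted p under 0.05, 0 of the 33 tested genes were higher and 0 were lower in Asxl1-/- cells, against 0% and 0.0261% of all symbols. At an unadjusted p under 0.05 the limma count was also 0 of 33, against 2.51% of all symbols higher and 5.41% lower, 7.92% in all. Separate animals or cultures behind the libraries are not stated in the labels. A p-value here therefore reflects only how far these samples lie apart, which may be technical. With 2 libraries a group an exact permutation test of a single gene cannot reach 0.05.

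The 33 genes had a median log2 fold change of -0.27, Asxl1-/- minus WT, against -0.07 over all symbols tested, with 25 below 0 and 8 above. Cd53 alone had no overlap between the groups with Asxl1-/- higher, against 15.6% of all symbols, and 0 of 33 had none with Asxl1-/- lower, against 25.2% of all symbols. The summed FPKM of the 48 genes averaged 280 ± 267 in Asxl1-/- and 363 ± 497 in WT libraries (SD, n = 2 each), a ratio of 0.773, and the SD was near to or above the mean in both groups.

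The highest fold change was that of Fcer1g, at 2.69 on the log2 scale with a standard error of 1.66 (limma, adjusted p = 0.712). Cd53 followed with 1.85, with a standard error of 0.72 (limma, adjusted p = 0.632, unadjusted p = 0.0555), the smallest p of the 33. Plek had 0.58 with a standard error of 0.85. The lowest were Cd52 at -1.18 with a standard error of 1.43, Alox5ap at -1.04 with 1.22 and Csf1r at -0.95 with 1.10. For these 4 genes the limma adjusted p lay between 0.847 and 0.875. Among the 5 most abundant genes besides Fcer1g, Lyz2 had a fold change of -0.32 with a standard error of 3.08, Tyrobp -0.44 with 2.04, Cd68 -0.71 with 1.35 and C1qc -0.15 with 1.79. The limma adjusted p over all 33 genes ran between 0.632 and 0.998.

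The sign of most of these differences rested on single libraries. Without WT replicate 2 all 33 fold changes were above 0, with a median of 1.21, and without WT replicate 1 all but 2 were below 0, with a median of -1.79. Without Asxl1-/- replicate 1, 29 were above 0 (median 0.87), and without Asxl1-/- replicate 2, 29 were below 0 (median -1.28). Fcer1g and Cd53 were the 2 genes above 0 in all 4 of these fits. In all 4 fits 0 of the 33 genes passed the adjusted threshold of limma.

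**Figure D3:**
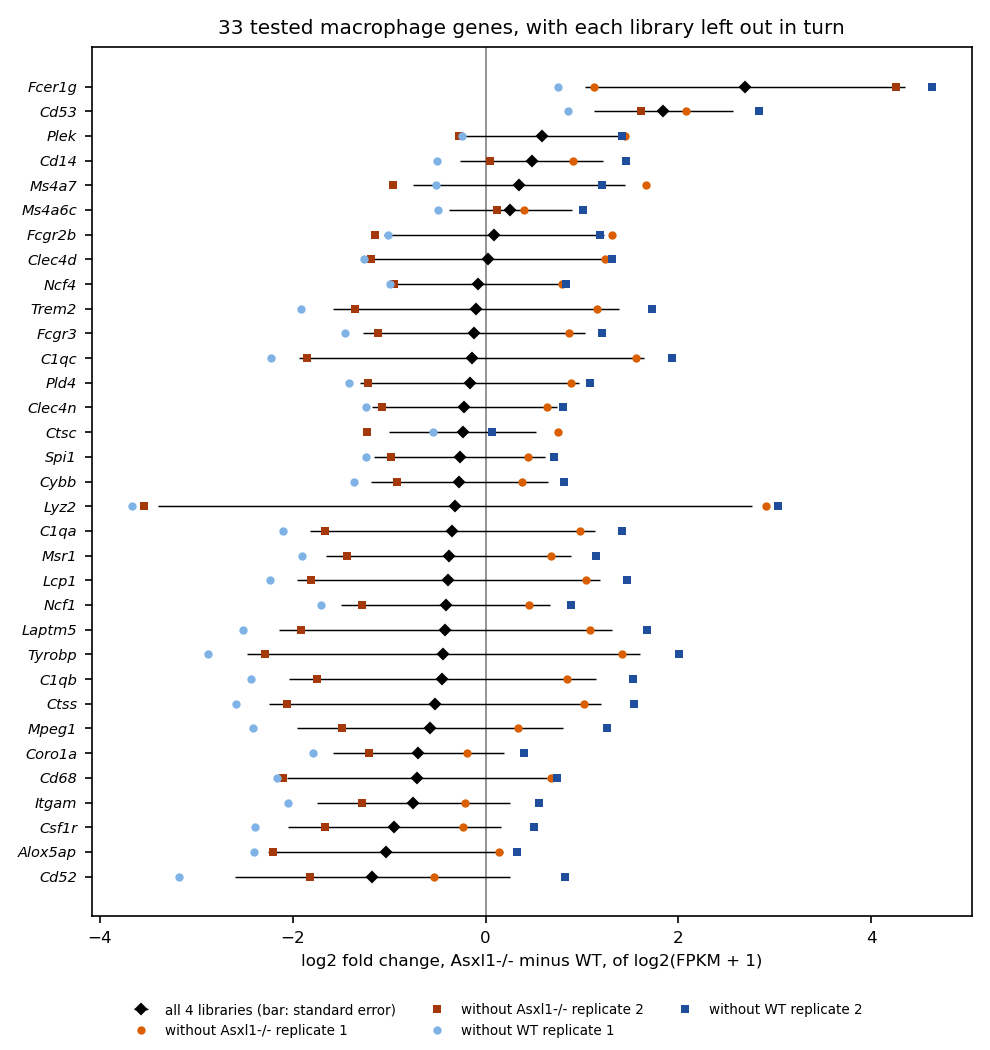
log2 fold change (Asxl1-/- minus WT, of log2(FPKM + 1), horizontal) of the 33 tested macrophage genes, with all 4 libraries as black diamonds with standard errors and with each library left out in turn as coloured marks. Without WT replicate 2 every gene lies above 0 and without WT replicate 1 all but Fcer1g and Cd53 lie below it.

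In the authors' deposited table, made with Cuffdiff on the same groups, 39 of the 48 genes were tested and 0 were marked significant, against 0.939% of all 12881 tested rows. The authors' deposited table gives 30 of the 39 a log2 fold change below 0 and 9 one above, with a median of -0.68, against 6364 below and 6517 above over all tested rows. Its smallest q-value among them was 0.412, for Cd53, and the authors' deposited table has 4 of the 39 at a p-value under 0.05, namely Cd53, Csf1r, Mpeg1 and Fcer1g, against 7.34% of all tested rows.

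A wider list of 58 other macrophage genes, likewise chosen by known expression, was read beside the 48. It summed to 232 and 426 FPKM in the Asxl1-/- libraries and to 332 and 294 FPKM in the WT libraries, and its sum did not follow the pattern of the 48. The sum was led by Lgals3, Gpnmb, Cyba and Arhgdib. Lgals3 (galectin-3), which many cell types make, stood at 84.0 and 59.0 FPKM in the Asxl1-/- libraries and at 100.2 and 86.6 FPKM in the WT libraries. Gene by gene, 38 of the 58 had both replicates 2 above both replicates 1, and 28 did so by over 5-fold. Emr1, the gene of the F4/80 antigen (now Adgre1), was one of these, at 0.0122 and 2.78 FPKM in the Asxl1-/- libraries and at 0.0125 and 6.26 FPKM in the WT libraries. Of the 22 tested, 0 passed the adjusted limma threshold between genotypes, and 1, lower in Asxl1-/-, had an unadjusted p under 0.05. Of the 7 tested ligand genes 0 passed the adjusted limma threshold, while 1 was higher and 1 lower in Asxl1-/- at an unadjusted p under 0.05.

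Markers of most other blood cells were low in all 4 libraries. Of the erythroid and megakaryocyte genes only Itga2b, and Ppbp in the WT libraries, passed 1 FPKM. Neutrophil genes (10 with a row) summed to 0.345 and 0.664 FPKM in the Asxl1-/- libraries and to 0.613 and 0.593 FPKM in the WT libraries, and S100a9, Mpo, Ltf and Retnlg were listed at 0 in all. The 8 B cell genes summed to at most 0.110 FPKM in Asxl1-/- and 0.379 FPKM in WT libraries, with Cd79b and Pax5 listed at 0 in all. T and NK cell genes (8) summed to 0.0327 and 0.0701 FPKM in the Asxl1-/- libraries and to 0.164 and 1.48 FPKM in the WT libraries. Most of the last value was Cd8a at 1.19 FPKM, while Cd3e and Cd3d were listed at 0 in all 4. The 6 dendritic cell genes summed to no more than 0.279 FPKM in Asxl1-/- and 0.347 FPKM in WT libraries. Erythroid and megakaryocyte genes (8) summed to 1.67 and 1.28 FPKM in the Asxl1-/- libraries and to 8.08 and 9.66 FPKM in the WT libraries, led by Itga2b in the Asxl1-/- libraries and by Ppbp in the WT libraries. Itga2b stood at 1.51 and 1.08 FPKM in the Asxl1-/- libraries and at 2.77 and 2.38 FPKM in the WT libraries, while Gp9 and Hbb-b1 were listed at 0 in all 4. Ppbp, a platelet chemokine gene, stood at 0.0433 and 0.0467 FPKM in the Asxl1-/- libraries, against 5.13 and 6.90 FPKM in the WT libraries, with no overlap. On the log2 scale it differed by -2.74, standard error 0.35 (limma, adjusted p = 0.369, unadjusted p = 0.000758).

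Antigen presentation by class II set the 2 libraries high in macrophage genes apart from each other. The 5 class II genes summed to 0.263 and 0.135 FPKM in the Asxl1-/- libraries and to 0.245 and 6.16 FPKM in the WT libraries. Cd74, the invariant chain, had 0.148 and 0.0799 FPKM in the Asxl1-/- libraries, against 0.153 and 4.71 FPKM in the WT libraries. The higher value is that of 1 library.

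Osteoclasts, which also descend from the myeloid lineage, share genes with macrophages. The 8 osteoclast genes summed to 48.9 and 35.9 FPKM in the Asxl1-/- libraries and to 47.4 and 50.5 FPKM in the WT libraries. Nearly all of this was Ctsk, a protease that fibroblasts also make, at 33.2 to 48.5 FPKM in Asxl1-/- and 43.1 to 47.5 FPKM in WT libraries, while Dcstamp was listed at 0 in all. Mmp9 stood at 0.0498 and 0.0805 FPKM in the Asxl1-/- libraries, against 3.72 and 0.9902 FPKM in the WT libraries. Atp6v0d2, a proton pump subunit, had 0.178 and 2.07 FPKM in the Asxl1-/- libraries, against 0 and 0.861 FPKM in the WT libraries, and was the 1 gene of this list with both replicates 2 above both replicates 1. Endothelial genes (9) summed to 2.60 and 9.31 FPKM in the Asxl1-/- libraries and to 6.75 and 2.998 FPKM in the WT libraries. Cdh5 (VE-cadherin) made 7.11 FPKM of the sum in Asxl1-/- replicate 2. Of the endothelial genes 0 had both replicates 2 above both replicates 1.

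**Figure D4:**
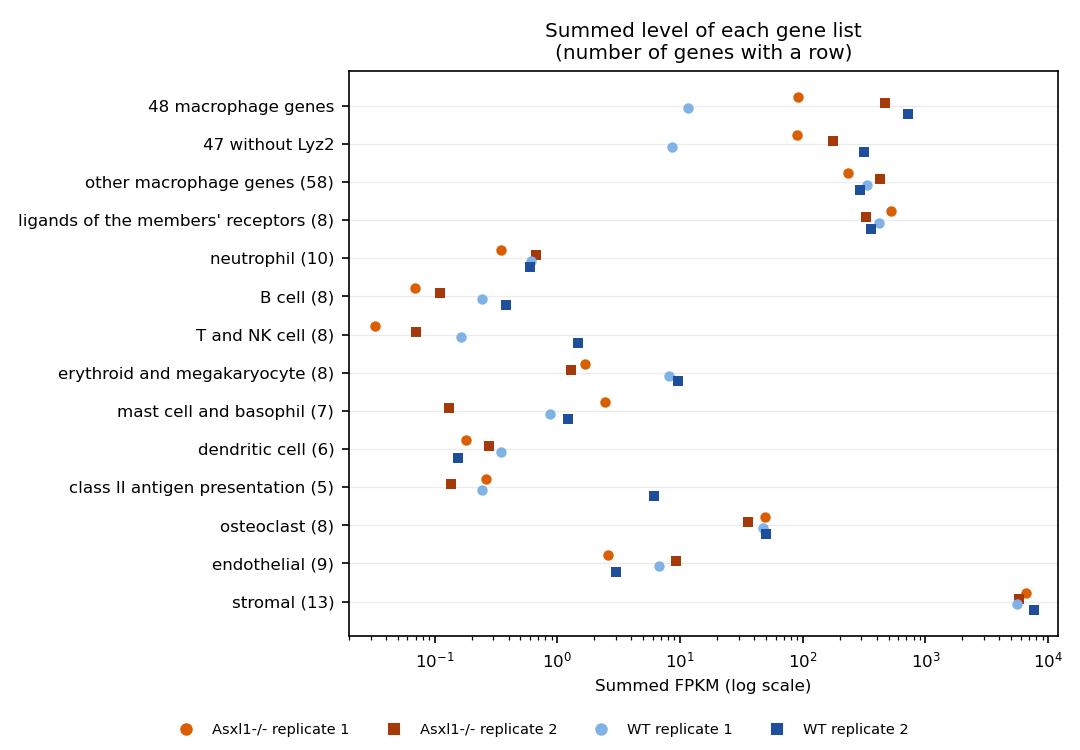
Summed FPKM (log scale) of the 48 macrophage genes, of the same without Lyz2 and of 12 other lists, with the number of genes with a row in brackets, in Asxl1-/- replicates 1 and 2 (orange circles, dark red squares) and WT replicates 1 and 2 (light blue circles, dark blue squares). The 48 genes reach 469 and 714 FPKM in the replicates 2, where the neutrophil, B cell and dendritic cell lists stay under 1 FPKM.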

How the data were processed

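RNA sequencing libraries of cultured MSPCs, 2 Asxl1-/- and 2 WT, were grouped by the genotype label. Per the submitters' processing notes, the tools were Cufflinks (version 2.2.1), Cuffdiff and TopHat2 (version 2.0.3), with the mouse build mm10. The sources used here give no kit, strandedness or annotation, so overlapping and near-identical genes are uncertain. The deposited FPKM, scaled by the authors to transcript length and mapped fragments, hold 24487 rows, and 2 columns that match no sample were not used. The authors' deposited table of group comparisons gives log2 fold changes, p-values and q-values. Its group FPKM were a median of 1.25 times (Asxl1-/-) and 1.16 times (WT) the mean of the libraries.

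Depth was estimated from FPKM times transcript length in genes with 1 GENCODE M21 transcript, where low values come in steps of 1 fragment. Within 0.15 of a whole number were 80.8% to 88.4% of the low values, so the steps were used for estimates only and no count test was run. The estimates are the depth and the fragments per gene, which also set the limit of 3 fragments. Fragments per gene assume the longest coding transcript in GENCODE M21, a length that may differ from the one behind the deposited FPKM. Intervals and floors cover counting error only. Starts are the deposited ones plus 1, which matched a GENCODE start for 22 of the 48 genes, against 3 as deposited.

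Symbols with a mean of at least 1 FPKM entered a limma fit (limma 3.58.1 in R 4.3.3, with a variance trend) on log2(FPKM + 1), Asxl1-/- minus WT, with Benjamini-Hochberg adjustment at 0.05. Tables and figures used Python (version 3.11.15), pandas (2.3.3), numpy (2.4.6) and matplotlib (3.10.9). Promoters came from RefSeq (37 of 48 genes matched), coding sequences from GENCODE.

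The 48 genes, the other lists and the rules were chosen with earlier results of these data known. Values per library are given for genes that average 10 FPKM or more, for lineage markers and, under no set rule, for some of the other members. Fold changes are given for the 3 lowest, the 3 highest and the 5 most abundant tested genes. From other lists up to 4 genes with the highest mean, and markers listed at 0, are named. Il34 was named outside that rule, after its values were seen, as a Csf1r ligand. Alternatives were pseudocounts of 0.1 and 0.5 FPKM, a filter at 5 FPKM or none, quantile normalization, median ratio scaling, rows under 300 bp left out, eBayes without trend or robust, and each library left out.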

Additional observations from a re-analysis of the deposited data

How the results depend on the processing

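At an adjusted p under 0.05, limma called 0 macrophage genes under every alternative run. The unadjusted count was 1 with quantile normalization and 0 to 3 with a library left out. The count with no overlap between the groups was 0 at a mean of at least 5 FPKM, where Cd53 is not tested, and 5 to 28 with a library left out, since 1 library against 2 overlaps less readily. The ratio of summed FPKM was 0.253 to 24.4 with a library left out. It was 24.4 without WT replicate 2, 0.253 without Asxl1-/- replicate 2, 0.393 without WT replicate 1 and 1.29 without Asxl1-/- replicate 1. It was 0.802 with median ratio scaling, 0.811 without short rows and 0.821 without Lyz2. With a pseudocount of 0.1 FPKM the log2 fold change of C1qc turned to 0.30 and that of Tyrobp went to -0.00074, while others grew, to 4.31 for Fcer1g, 3.01 for Cd53, 1.08 for Plek and -1.67 for Alox5ap. A smaller pseudocount gives more weight to differences between values near 0, such as C1qc at 0.224 FPKM in Asxl1-/- replicate 1 and 0.0461 FPKM in WT replicate 1. With a library left out, log2 fold changes ran between -3.18 and 0.83 for Cd52, -2.40 and 0.33 for Alox5ap, -2.39 and 0.50 for Csf1r, -0.27 and 1.44 for Plek, -3.67 and 3.03 for Lyz2, -2.88 and 2.00 for Tyrobp, -2.16 and 0.74 for Cd68, -2.22 and 1.93 for C1qc, 0.75 and 4.63 for Fcer1g, and 0.85 and 2.84 for Cd53. A lone library is assumed there to vary like the other group. No paired analysis was possible because the labels give no replicate numbers. A few fragments per gene in the low libraries limit folds against them.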
